A study of Felis catus with 6 samples.

Results

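The genes described here are 47 members of the chemokine, interleukin, colony stimulating factor and tumor necrosis factor (TNF) superfamilies, with their receptors, in the oral mucosa of cats with feline chronic gingivostomatitis (FCGS), a chronic immune-mediated inflammation of the mouth. They were selected by symbol from the 1981 rows at hand of the gene sheet published with the study, which lists genes at least 2-fold different between lesions and healthy mucosa. A set of 60 rows carried a cytokine-family symbol, and 13 of them (IL6, IL11, IL1B, IL10, IL17A, IL7R, IL2RA, IFNG, CXCL9, CCR1, CCR6, CSF3R and TNFRSF17) were left out by rule. The members were thus chosen by their difference between lesion and healthy mucosa in these same 6 libraries, so that difference is given as a description, and the counts of limma calls on it are no independent evidence. One of the 47, IL4I1, is an enzyme that shares only the prefix of its symbol with the interleukins.

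RNA was sequenced from 3 cats, named Bart, Jerome and Sadie in the labels, with 1 biopsy of a lesion and 1 of adjacent healthy mucosa from each animal. The healthy biopsies therefore come from the mouths of diseased cats and not from healthy animals. All FCGS cats of the study were edentulous and received buprenorphine for pain, and none had immunosuppressive or antibiotic therapy at collection. The labels call the tissue gingival, whereas the series text places the biopsies beside the palatoglossal folds, and the age and sex of each cat are not stated in the sources used here.

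Chemokines are small secreted proteins that direct the movement of leukocytes through G protein-coupled receptors, and atypical chemokine receptors bind them without such signaling. Interleukins and colony stimulating factors control the growth, survival and activation of leukocytes, and many of their receptors share chains. The TNF superfamily holds membrane-bound and soluble ligands that act on paired receptors in costimulation, survival and cell death. In the oral mucosa epithelial cells, endothelium, fibroblasts and leukocytes all take part in this exchange.

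The deposited values are FPKM, which divide the fragments of a transcript by its length and by the size of the library, for 21529 Ensembl identifiers per library, so levels of different genes can be compared per length. Summed FPKM ranged from 1382122 to 1903773 per library. The paper gives only an approximate depth per sample. The read total of each library is unknown, and no counting error can be given. Values below 1 FPKM were raised to 1 before log2 was taken, so differences of weakly expressed genes are understated. Tests were run on the 13327 identifiers that reached 1 FPKM in 3 or more libraries. Of the members 44 were among them, and CSF2, IL20 and IL24 were not. IL18R1 passed this filter through the lesions alone. Cell type markers, too, have a name only if they are in the published gene sheet. The named markers are thus preselected on the difference between lesion and healthy mucosa, and markers under the 2-fold limit cannot appear. Of 27 skeletal muscle markers 22 had a name, and their FPKM summed to 6554 in the Jerome lesion, to 5890 in the Sadie lesion and to 2844 in the Sadie healthy sample, but to 13.9 to 39.3 in the other 3 libraries. COL17A1, the collagen of basal epithelial cells, was at 42.7 to 504 FPKM in every library, whereas KRT4, the keratin of mature oral epithelium, was listed at 0 in the healthy mucosa of Jerome and Sadie.

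Most of the 47 members were higher in lesions than in healthy mucosa. By the mean of the 3 cats 44 were higher and 3 (IL17RC, TNFSF18 and IL20) were lower. In 38 members the lesion was higher in every cat, in 2 (IL17RC and TNFSF18) it was lower in every cat, and in 7 the cats disagreed or a cat showed no difference above the floor. The median log2 difference over the members was 1.65, against -0.07 over all identifiers tested. By cat the median was 2.08 (Bart), 1.70 (Jerome) and 1.44 (Sadie), against -0.04, -0.07 and -0.02 over all identifiers tested in the same cats. In bulk tissue, more cells of a type and more RNA per cell cannot be told apart.

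The 3 lesions and the 3 healthy libraries did not overlap for 28 members, 26 with higher lesions and 2 with lower ones. Of the 44 members tested these were 25 and 2, where lesions lay above healthy mucosa for 16.7% of all identifiers tested and below it for 21.9%. Limma called 8 of the 44 members higher and none lower at an adjusted p under 0.05, beside 5.31% and 6.61% of all identifiers. At an unadjusted p under 0.05 there were 33 members, beside 31.6% of all identifiers in either direction. With the cat as a block it called 29 higher and 1 lower, beside 12.2% and 11.1%. Since the members were chosen on this contrast, these counts do not support their direction. The members nearest the 2-fold limit were CCR4 (mean log2 difference 1.06), TNFRSF14 (1.07) and IL24 (1.07) on the upper side, and IL17RC (-1.04) and TNFSF18 (-1.07) on the lower. Genes just outside the limit carry no name in the sheet. A further 328 rows of the sheet were not used here, and no identifier with a name had a mean log2 difference below -2.38, so a member below this value would be missed.

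**Figure D1:**
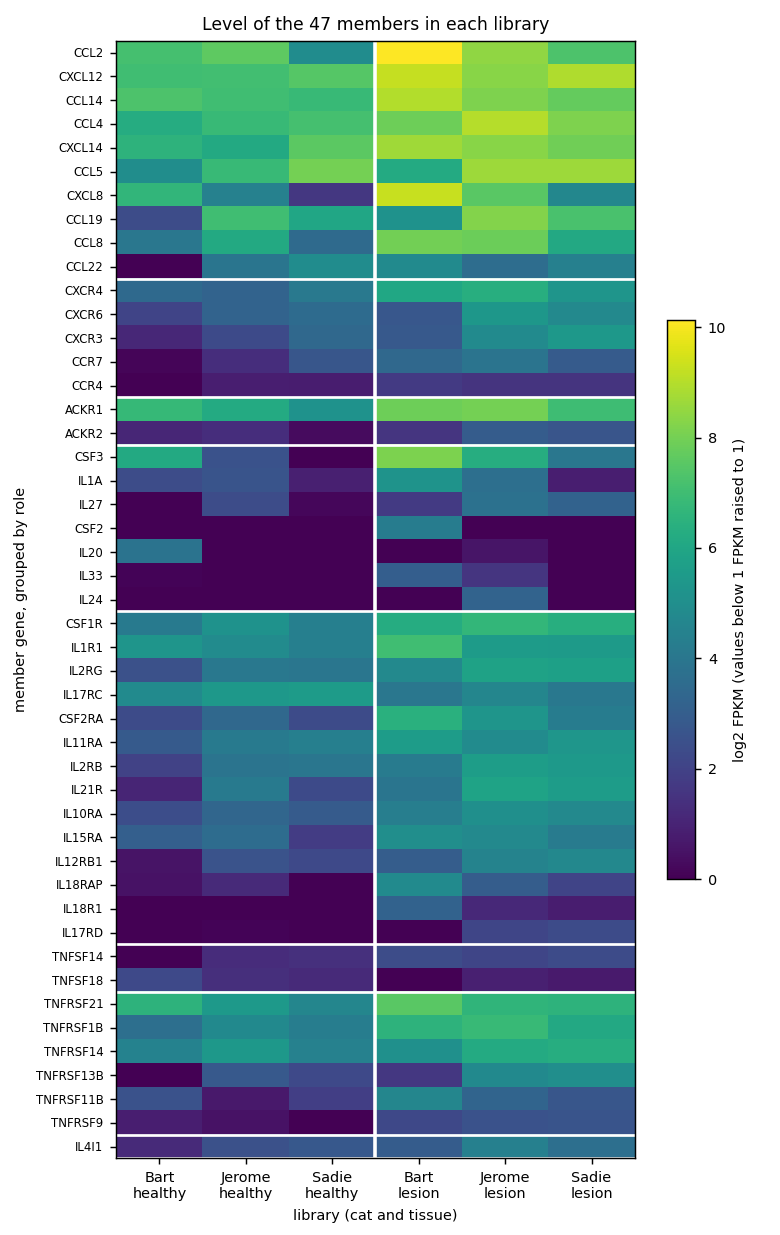
Level of each of the 47 members (rows, grouped by role, with white lines between groups) in the 6 libraries (columns) as log2 FPKM, with values below 1 FPKM raised to 1. Most rows are brighter in the 3 lesion columns on the right, and the lesion of Bart differs from those of Jerome and Sadie in many rows.

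All 10 chemokine ligands were higher in lesions by the mean, and 9 of them in every cat. The median log2 difference of the group was 1.62. CCL2, which attracts monocytes, measured 1118 FPKM in the lesion of Bart, 350 FPKM in that of Jerome and 158 FPKM in that of Sadie, against 141, 194 and 30.5 FPKM in their healthy mucosa. The lesion was the higher sample in each cat, but the healthy mucosa of Jerome lay above the lesion of Sadie. The mean log2 difference was 2.07 ± 1.10 (SD, n = 3 cats). CCL8, a relative of CCL2 that also acts on monocytes, was at 253, 231 and 69.2 FPKM in the lesions of Bart, Jerome and Sadie and at 16.3, 71.5 and 11.4 FPKM in their healthy mucosa. Both genes were highest in Bart among the lesions, highest in Jerome among the healthy libraries and lowest in Sadie in either tissue.

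CXCL8 is the main attractant of neutrophils among the CXC chemokines. Its lesion values were 623 FPKM in Bart, 186 FPKM in Jerome and 25.8 FPKM in Sadie, and its healthy values 101, 21.8 and 3.10 FPKM. The difference between the tissues was nearly the same in every cat, at 2.63, 3.10 and 3.06 on the log2 scale (mean 2.93 ± 0.26, SD, n = 3 cats). The levels were not, and the healthy mucosa of Bart lay above the lesion of Sadie.

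CXCL12, CCL14 and CXCL14 were abundant in both tissues. CXCL12, which retains and recruits cells that carry CXCR4, was at 603, 320 and 480 FPKM in the lesions of Bart, Jerome and Sadie and at 129, 133 and 177 FPKM in healthy mucosa. CCL14, a chemokine found constitutively in many tissues, was at 498, 290 and 213 FPKM in lesions and at 156, 128 and 112 FPKM in healthy mucosa. CXCL14, a homeostatic chemokine of epithelia, was at 412, 320 and 245 FPKM against 93.9, 71.6 and 189 FPKM. The tissues did not overlap for any of these genes, although the difference of CXCL14 in Sadie was only 0.38 on the log2 scale, against 2.13 in Bart and 2.16 in Jerome.

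CCL5 and CCL4 were higher in the lesion of every cat and took another order of the cats. CCL5, a T cell attractant made by cytotoxic lymphocytes, was at 72.3 FPKM in the lesion of Bart and at 401 FPKM in each of the other lesions. Its healthy values were 31.0, 114 and 254 FPKM in Bart, Jerome and Sadie, so that the healthy mucosa of Jerome and Sadie lay above the lesion of Bart. CCL4, a chemokine of activated leukocytes, was at 235, 511 and 287 FPKM in the lesions and at 77.7, 113 and 142 FPKM in healthy mucosa, without overlap. Bart had the lowest value of both genes in each tissue.

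Of the 5 chemokine receptors all were higher in the lesion of every cat, with a median log2 difference of 2.03. CXCR4, carried by most leukocytes, was at 64.8, 82.6 and 38.4 FPKM in the lesions of Bart, Jerome and Sadie and at 11.2, 9.24 and 17.3 FPKM in healthy mucosa (mean log2 difference 2.28 ± 1.03, SD, n = 3 cats). CXCR3, the receptor for interferon-induced chemokines on activated T cells, was at 7.13, 29.0 and 42.4 FPKM in lesions and at 2.19, 4.87 and 10.7 FPKM in healthy mucosa. CXCR6, of tissue-resident and cytotoxic T cells, was at 6.66, 41.2 and 26.9 FPKM in lesions and at 4.17, 9.33 and 11.7 FPKM in healthy mucosa. For CXCR3 and CXCR6 the lesion of Bart lay below the healthy mucosa of Sadie, whereas the tissues of CXCR4 did not overlap.

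Both atypical receptors were higher in the lesion of every cat and did not overlap between the tissues. ACKR1, the Duffy antigen, which carries chemokines across venules, was at 235, 259 and 127 FPKM in the lesions of Bart, Jerome and Sadie and at 111, 72.4 and 36.3 FPKM in healthy mucosa. ACKR2, a scavenger of inflammatory CC chemokines, was at 2.96, 7.62 and 6.40 FPKM in lesions and at 2.13, 2.50 and 1.22 FPKM in healthy mucosa. All 9 endothelial markers with a name (of 11 listed) were also higher in the lesion of every cat and highest in that of Bart. Their summed level was 2076, 914 and 851 FPKM in the lesions of Bart, Jerome and Sadie and 204 to 456 FPKM in healthy mucosa, and none was listed at 0. These markers were named from the same 2-fold list, so their rise in lesions is a description. Their part in the values of ACKR1 was not tested.

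Ligands and receptors were set side by side where both are members. CCL19 draws dendritic cells and naive T cells through CCR7. CCL19 was at 35.5, 300 and 150 FPKM in the lesions of Bart, Jerome and Sadie and at 5.08, 132 and 63.3 FPKM in healthy mucosa, while CCR7 was at 10.7, 14.8 and 7.52 FPKM in lesions and at 1.09, 2.48 and 6.51 FPKM in healthy mucosa. The lesion exceeded the healthy mucosa in each cat for ligand and receptor, but by only 0.21 on the log2 scale for CCR7 in Sadie. CCL22, which acts on regulatory and helper T cells through CCR4, was at 28.7, 12.3 and 21.5 FPKM in lesions. In healthy mucosa it was listed at 0 in Bart and was at 15.3 FPKM in Jerome and 30.6 FPKM in Sadie, so it was lower in the lesion of these cats, by log2 differences of -0.31 and -0.51. Its receptor CCR4 was low throughout, at 3.34, 2.91 and 2.91 FPKM in lesions and at 0.703, 1.79 and 1.76 FPKM in healthy mucosa, without overlap. The place of CCL22 among genes higher in lesions thus rests on the healthy mucosa of Bart.

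**Figure D2:**
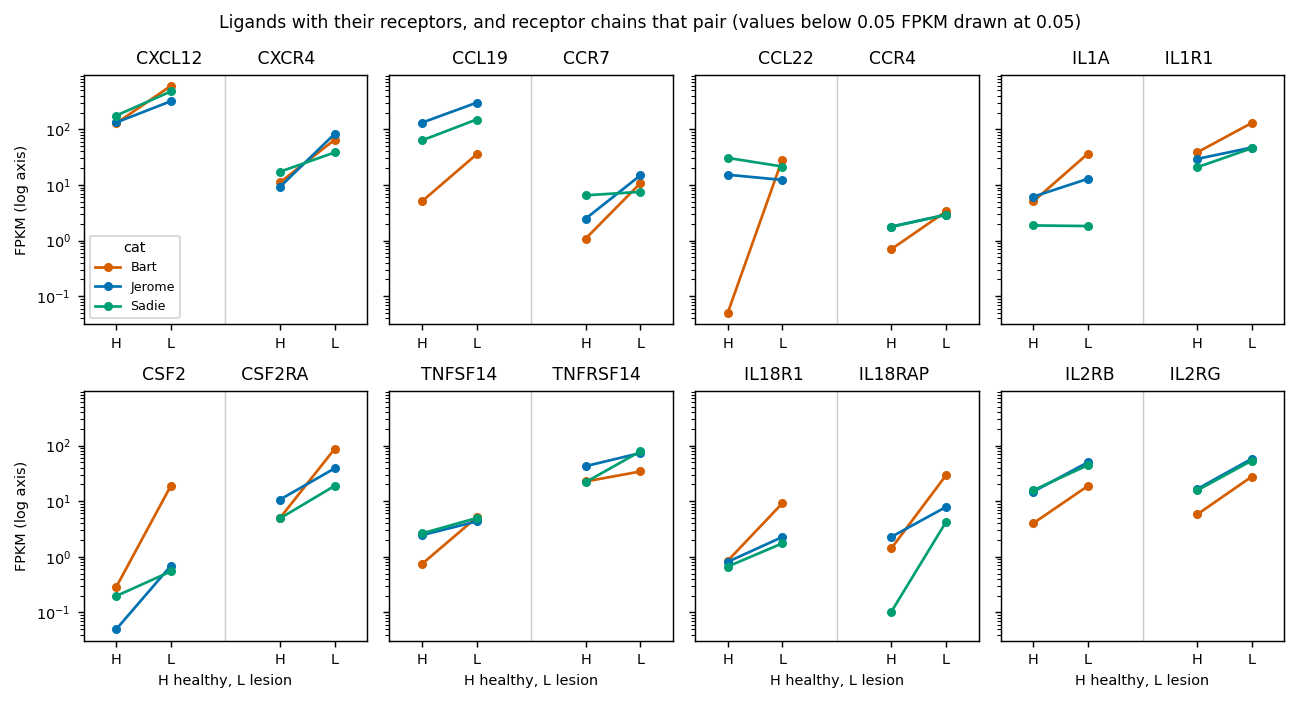
FPKM (log axis) in healthy mucosa (H) and lesion (L) for ligands with their receptors and for receptor chains that pair, with 1 line per cat and values below 0.05 FPKM drawn at 0.05. CCL22 is higher in the lesion in Bart alone, where the healthy library listed it at 0, and IL2RB and IL2RG run nearly in parallel in all cats.

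Of the 7 interleukins and colony stimulating factors, 6 were higher in lesions by the mean but only CSF3 and IL27 in every cat. CSF3, the growth factor of neutrophils, had the largest mean log2 difference of all 47 members, 3.26 ± 1.12 (SD, n = 3 cats). It was at 283 FPKM in the lesion of Bart, 80.3 FPKM in that of Jerome and 16.3 FPKM in that of Sadie, against 71.7, 5.87 and 0.432 FPKM in healthy mucosa. The order of the cats was the same in both tissues, as for CXCL8, and the healthy mucosa of Bart again lay above the lesion of Sadie. IL27, the gene of a subunit of a cytokine of antigen-presenting cells, was at 3.32, 13.8 and 9.19 FPKM in lesions and at 0.701, 5.11 and 1.12 FPKM in healthy mucosa. Here Bart had the lowest value in each tissue.

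IL1A and IL33 are members of the interleukin 1 family that epithelial and other cells release on damage. IL1A was at 36.6, 12.9 and 1.83 FPKM in the lesions of Bart, Jerome and Sadie and at 5.07, 6.16 and 1.87 FPKM in healthy mucosa. IL33 was at 8.04, 2.99 and 0.844 FPKM in lesions and at 1.07, 0.375 and 0.0651 FPKM in healthy mucosa. Both were highest in the lesion of Bart. In Sadie the lesion of IL1A was no higher than the healthy mucosa, and IL33 was below 1 FPKM in either tissue. IL1R1, the signaling receptor of interleukin 1, was at 130, 47.1 and 45.6 FPKM in lesions and at 38.4, 29.3 and 20.8 FPKM in healthy mucosa, without overlap and with the same order of the cats in both tissues.

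A trio of cytokine genes was at or above 1 FPKM in fewer than 3 libraries and was named from 1 or 2 values above the floor. CSF2, a growth factor of granulocytes and macrophages, was at 18.9 FPKM in the lesion of Bart and at 0.689 FPKM or less in every other library. IL24 was at 9.28 FPKM in the lesion of Jerome and at 0.696 FPKM or less elsewhere. IL20 was at 14.5 FPKM in the healthy mucosa of Bart and at 1.49 FPKM in the lesion of Jerome, with 0.135 FPKM or less in the other 4 libraries. IL20 and IL24 belong to the interleukin 10 family, act on epithelial cells and lie next to each other on chromosome F1 of the RefSeq cat assembly F.catus_Fca126_mat1.0, with 0 protein-coding genes between them. They were not high in the same library. For each of the 3 genes the fold difference of the group rests on a single library.

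Of the 14 receptors for interleukins and colony stimulating factors, 13 were higher in lesions and 12 of them in every cat, with a median log2 difference of 1.84 over all 14. In 12 of the 14 the tissues did not overlap. CSF1R, the receptor that maintains macrophages, was at 77.4, 104 and 80.8 FPKM in the lesions of Bart, Jerome and Sadie and at 17.9, 35.7 and 20.9 FPKM in healthy mucosa, close to the same difference in each cat (1.87 ± 0.29, SD, n = 3). CSF2RA, the binding chain of the CSF2 receptor on myeloid cells, was at 86.6, 38.8 and 18.8 FPKM in lesions and at 4.99, 10.7 and 4.91 FPKM in healthy mucosa. The healthy values of CSF2RA differed little between Bart and Sadie, while the lesion of Bart stood highest.

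IL18R1 and IL18RAP form the receptor for interleukin 18 on T and NK cells, and in the RefSeq assembly the genes are neighbors on chromosome A3, with IL1R1 behind 2 further protein-coding genes. IL18RAP was at 29.1, 7.86 and 4.21 FPKM in the lesions of Bart, Jerome and Sadie and at 1.42, 2.28 and 0.103 FPKM in healthy mucosa. IL18R1 was at 9.12, 2.26 and 1.74 FPKM in lesions and at 0.847, 0.810 and 0.667 FPKM in healthy mucosa. Both chains, and IL1R1, had the order Bart, Jerome and Sadie in lesions. In healthy mucosa IL18R1 lay below the floor of 1 FPKM in all 3 cats and IL18RAP in Sadie, so distances between the cats there cannot be read for this receptor.

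A different order was seen for IL2RB, IL2RG, IL21R and IL12RB1, all lowest in the lesion of Bart. IL2RB and IL2RG, the beta chain and common gamma chain that serve interleukins 2 and 15, were lowest in Bart in both tissues. IL2RB was at 18.8, 50.0 and 44.3 FPKM in the lesions of Bart, Jerome and Sadie and at 4.02, 14.8 and 15.7 FPKM in healthy mucosa. IL2RG was at 27.5, 57.6 and 53.4 FPKM in lesions and at 5.76, 16.5 and 15.6 FPKM in healthy mucosa. The chains differed between the tissues by nearly the same amount, with mean log2 differences of 1.83 ± 0.37 and 1.95 ± 0.27 (SD, n = 3 cats each). IL21R, which pairs with IL2RG on B and T cells, was at 15.5, 59.2 and 48.3 FPKM in lesions and at 2.05, 17.3 and 4.90 FPKM in healthy mucosa, and the healthy mucosa of Jerome lay above the lesion of Bart. IL12RB1, a receptor chain for interleukins 12 and 23, was at 7.90, 23.1 and 26.1 FPKM in lesions and at 1.45, 6.00 and 4.65 FPKM in healthy mucosa. IL10RA, which binds interleukin 10, had the smallest spread between cats, with a mean log2 difference of 1.82 ± 0.11 (SD, n = 3).

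IL17RC, which forms the receptor for IL17A and IL17F with IL17RA, was the one receptor with lower lesions. It was at 16.2, 24.9 and 16.4 FPKM in the lesions of Bart, Jerome and Sadie and at 29.1, 42.3 and 47.02 FPKM in healthy mucosa, without overlap. The log2 differences of Bart and Jerome were -0.85 and -0.77, and that of Sadie was -1.52. COL17A1, a marker of basal epithelial cells, was lower in the lesion of every cat as well, at 51.4, 114 and 42.7 FPKM against 504, 222 and 240 FPKM, and KRT10 and LAMB4 were also lower in every cat. KRT4, the remaining epithelial marker with a name (4 of 20), was at 8.99, 2534 and 569 FPKM in lesions and at 2089 FPKM in the healthy mucosa of Bart, and was listed at 0 in that of Jerome and Sadie. These markers, too, were named from the 2-fold list. The part of epithelium in the values of IL17RC was not tested. IL17RD, a relative that dampens growth factor signaling, was at 0.966, 4.31 and 5.03 FPKM in lesions and at 0.289, 1.06 and 0.222 FPKM in healthy mucosa, so that in Bart it stayed under the floor in both tissues. The other receptors, IL11RA and IL15RA, had mean log2 differences of 1.47 ± 1.08 and 1.85 ± 0.63 (SD, n = 3 cats each), and their tissues did not overlap.

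**Figure D3:**
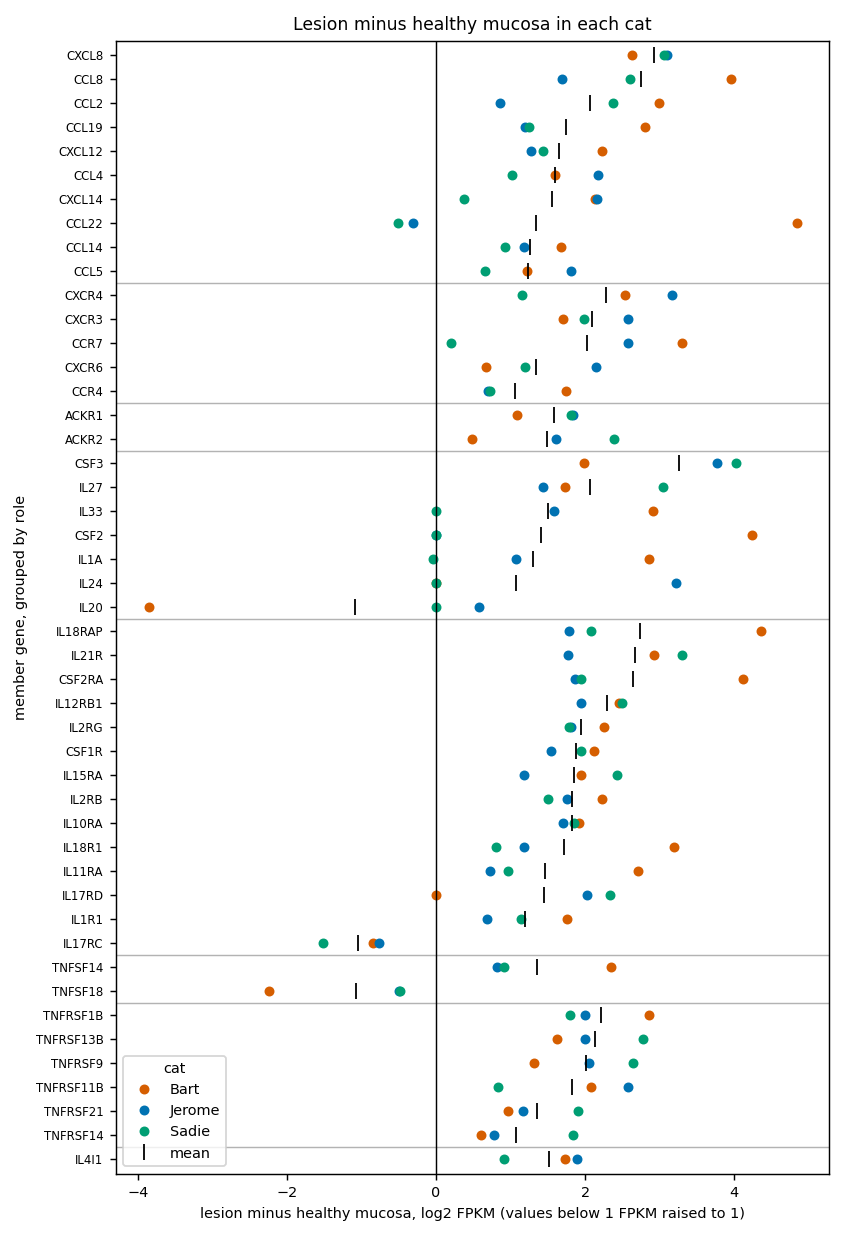
Lesion minus healthy mucosa on the log2 FPKM scale (horizontal axis, values below 1 FPKM raised to 1) for each member (vertical axis, grouped by role), with 1 point per cat and the mean as a black tick. IL17RC and TNFSF18 lie left of 0 in all 3 cats, CCL22 and CSF2 are set by Bart, and IL10RA and CXCL8 have the points of the 3 cats close together.

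The TNF receptors were higher in the lesion of every cat in all 6 genes, with a median log2 difference of 1.92. TNFRSF1B, a TNF receptor of leukocytes and endothelium, was at 94.4, 112 and 68.8 FPKM in the lesions of Bart, Jerome and Sadie and at 13.1, 28.2 and 19.7 FPKM in healthy mucosa, the largest mean log2 difference of these 6 members (2.22 ± 0.56, SD, n = 3 cats). TNFRSF21, a death receptor found in many tissues, was at 184, 97.5 and 92.9 FPKM in lesions and at 93.8, 43.4 and 24.7 FPKM in healthy mucosa, where the healthy value of Bart just exceeded the lesion of Sadie. TNFRSF9, a costimulatory receptor of activated T cells, was low but separated, at 4.53, 5.87 and 6.26 FPKM in lesions and at 1.82, 1.41 and 0.630 FPKM in healthy mucosa. TNFRSF11B, the osteoprotegerin decoy receptor that restrains bone resorption, was at 24.9, 9.65 and 6.57 FPKM in lesions and at 5.88, 1.62 and 3.70 FPKM in healthy mucosa.

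TNFRSF13B, the TACI receptor of B cells and plasma cells, stood lowest in Bart in both tissues. It was at 3.09, 28.3 and 32.4 FPKM in the lesions of Bart, Jerome and Sadie and at 0.275, 7.08 and 4.75 FPKM in healthy mucosa. Of 13 B cell markers 11 had a name, and 10 of these were lowest in the lesion of Bart among the lesions. Their summed level was 245 FPKM there, 655 FPKM in the Jerome lesion and 1434 FPKM in the Sadie lesion, against 97.8 to 219 FPKM in healthy mucosa, with 1 marker (PAX5) listed at 0 in a library. BLNK alone was lower in the lesion of every cat, and without it the sums were 229, 601 and 1364 FPKM in the lesions of Bart, Jerome and Sadie and 24.2, 120 and 56.9 FPKM in healthy mucosa. The named B cell markers also come from the 2-fold list. The part of B cell numbers in the values of TNFRSF13B was not tested.

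The TNF ligands went opposite ways. TNFSF14 (LIGHT), a ligand of activated T cells, was at 5.09, 4.31 and 4.96 FPKM in the lesions of Bart, Jerome and Sadie and at 0.742, 2.45 and 2.63 FPKM in healthy mucosa. Its receptor TNFRSF14 was at 34.1, 73.2 and 78.3 FPKM in lesions and at 22.6, 42.6 and 22.0 FPKM in healthy mucosa, where the healthy mucosa of Jerome lay above the lesion of Bart. TNFSF18 (GITR ligand), which costimulates T cells, was at 0.708, 1.84 and 1.67 FPKM in lesions and at 4.73, 2.59 and 2.33 FPKM in healthy mucosa. TNFSF14 was higher and TNFSF18 lower in the lesion of every cat, without overlap. For TNFSF18 the log2 difference was -2.24 in Bart, whose lesion lay below the floor, but only -0.49 in Jerome and -0.48 in Sadie. The place of TNFSF18 on the 2-fold list thus rests on Bart. IL4I1, an amino acid oxidase of antigen-presenting and B cells, was at 7.77, 21.3 and 13.1 FPKM in lesions and at 2.33, 5.74 and 6.93 FPKM in healthy mucosa, without overlap.

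The rule used the mean difference between tissues and not the cats, but a high value in a single lesion could help a gene onto the list, so the order of the cats among lesions is a description. Among the lesions, the highest value was in Bart for 21 of the 47 members, in Jerome for 20 and in Sadie for 6. Over all identifiers tested the shares were 41.2%, 30.0% and 28.8%. Without CCL22, CSF2, IL20 and IL24, whose place on the list rests on a single library, the counts were 19, 18 and 6. Other members also lean on the lesion of Bart. The log2 differences of IL1A, IL33 and IL18R1 were 2.85, 2.91 and 3.19 in Bart and 1.07, 1.58 and 1.18 in Jerome. In Sadie they were -0.04, 0 and 0.80. Counts without these genes were not computed, so the counts given do not show that the order of the cats is stable. The highest lesion was that of Bart for 7 of the 10 chemokine ligands, 6 of the 14 interleukin and colony stimulating factor receptors and 4 of the 7 interleukins and colony stimulating factors. The lesion of Bart was also the lowest for 22 members (for IL20 tied with Sadie at 0), among them CXCR3, CXCR6, CCL5, CCL19, IL2RB, IL2RG, IL21R, IL12RB1 and TNFRSF13B. The share of all identifiers with the lowest lesion in Bart was not computed, so this count cannot be read as particular to the members. Of the 13 cytokine genes left out by rule, 9 were highest in the lesion of Bart.

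A limma F test of the cat, with tissue as a term, called 0 of the 44 members at an adjusted p under 0.05, beside 1 of the 13327 identifiers, or 0.0075%. At an unadjusted p under 0.05 it counted 20 members (45.5%) and 2765 identifiers (20.7%). The pairwise contrasts of Bart against Jerome, Bart against Sadie and Jerome against Sadie called none of the members either, and 0.0075%, 0.0075% and 0.0% of all identifiers. At an unadjusted p under 0.05 they counted 19, 19 and 9 members (43.2%, 43.2% and 20.5%), beside 23.4%, 25.4% and 4.43% of all identifiers. The test rests on 2 residual degrees of freedom and compares these 3 animals alone. CXCL8 had the smallest p of the members (3.8e-05, adjusted p = 0.14), and over both tissues Bart exceeded Jerome by 1.97 and Sadie by 4.81 on the log2 scale (standard error 0.21 each). CSF3 differed in the same direction, by 2.71 and 5.14 (standard error 0.58 each, adjusted p = 0.14).

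In the opposite direction TNFRSF13B was lower in Bart than in Jerome by a log2 difference of -3.01 and than in Sadie by -2.82 (standard error 0.36 each, adjusted p of the F test = 0.14). For CCL19 these differences were -3.89 and -2.86 (standard error 0.48), for CCL5 -2.18 and -2.75 (standard error 0.33) and for CXCR3 -1.59 and -2.43 (standard error 0.30), each with an adjusted p of 0.14. In the mean over both tissues CXCR4 differed between the cats by at most 0.10 on the log2 scale (standard error 0.53). Its lesion values spanned 38.4 to 82.6 FPKM. Jerome had the highest lesion and the lowest healthy value (9.24 FPKM), and Sadie the lowest lesion and the highest healthy value (17.3 FPKM). The differences in the tissues thus offset each other in this mean, and CXCR4 was not alike between the cats. None of these differences between cats passed the adjusted test, and the genes were named after their values were seen.

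The distance of Bart from the mean of the other cats in lesions and the same distance in healthy mucosa correlated at r = 0.55 over the 47 members, at 0.64 over the 44 tested and at 0.49 over the 13327 identifiers tested (Pearson, across genes, which share the libraries and are not independent). Bart lay on the same side of the other cats in both tissues for 59.6% of the 47 members and 70.0% of all identifiers tested. CSF2, IL24 and IL18R1 had a healthy distance of 0, set by the floor, and count as not on the same side. CSF2, IL20 and IL24 are not among the identifiers tested, so these shares do not cover like sets. The order of the 3 cats was the same in both tissues for 14 of the 47 members, all of them among the 44 tested, and for 31.1% of all identifiers tested. This share of the members, 29.8%, is near that of all identifiers. CXCL8 and CSF3 lay far above 0 in both tissues. IL1A was higher in Bart than in the other cats by 2.91 on the log2 scale in lesions and by 0.58 in healthy mucosa, where all 3 cats were above the floor. For CCL2, also above the floor in every library, these distances were 2.25 and 0.88. IL33, IL18RAP, IL18R1 and CSF2 also stood over 2 higher in the lesion of Bart, but their healthy values lay below the floor in at least 1 cat, so no lack of a difference in healthy mucosa is shown for them.

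**Figure D4:**
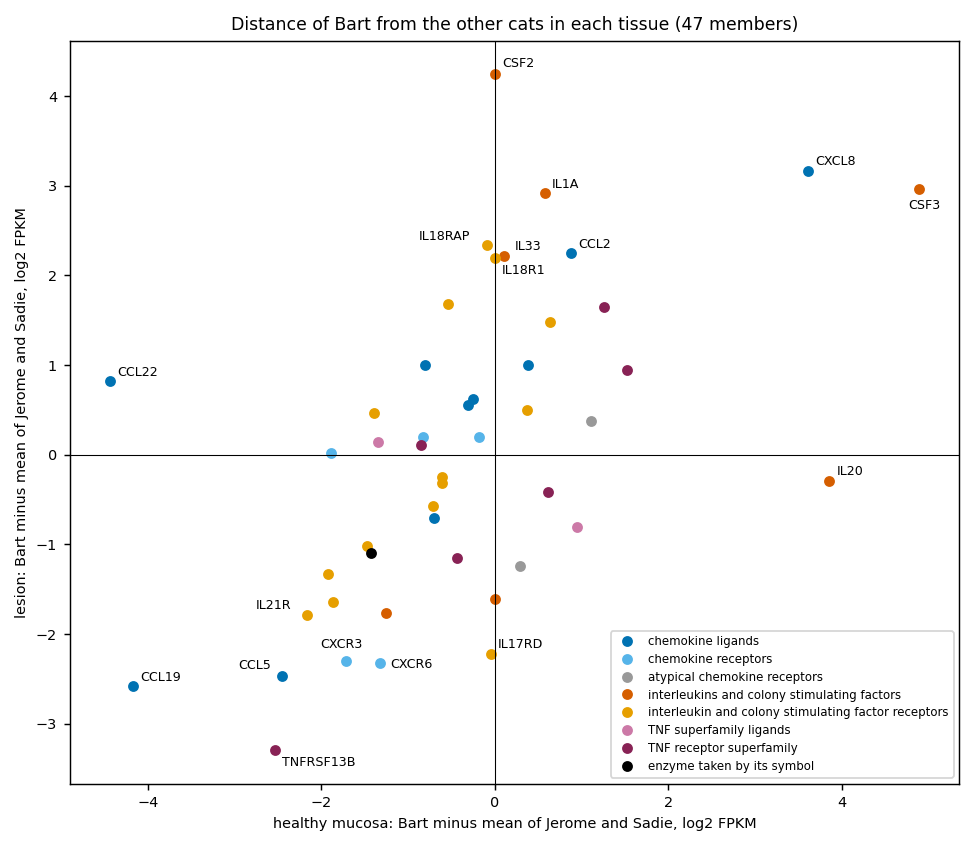
Distance of Bart from the mean of Jerome and Sadie on the log2 FPKM scale (values below 1 FPKM raised to 1), in healthy mucosa (horizontal axis) and in lesions (vertical axis), with 1 point per member colored by role and names for points beyond 2 on either axis. CXCL8 and CSF3 lie at the upper right, CCL19, CCL5, CXCR3 and TNFRSF13B at the lower left, and CSF2, IL1A, IL18RAP, IL18R1 and IL33 near the vertical axis at the top, where the floor sets the healthy distance of all of these but IL1A.

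Markers of several cell types differed between the lesions, beside the endothelial and B cell markers given above. All named markers come from the 2-fold gene sheet, so their differences between lesion and healthy mucosa are descriptions. Of 12 T cell markers with a name (of 15 listed), 11 were lowest in the lesion of Bart, with a summed level of 267 FPKM there, 616 FPKM in Jerome and 739 FPKM in Sadie, against 75.8 to 210 FPKM in healthy mucosa, and none was listed at 0. They were higher in the lesion of every cat, with a median log2 difference of 1.48 (1.28 to 2.33). The mean differences of CXCR3, IL12RB1 and CXCR6 (2.09, 2.29 and 1.34) lay within this range, that of IL21R (2.66) above it and that of CCL5 (1.23) below it. Those of IL2RB (1.83), IL2RG (1.95) and TNFRSF9 (2.01) also lay within the range. Markers and members passed the same 2-fold limit, so some likeness of their ranges was fixed in advance. These members were picked after their values were seen, and the part of T cell numbers in them was not tested. The 4 plasma cell markers with a name (of 8) were all lowest in the lesion of Bart, at a sum of 280 FPKM against 962 FPKM (Jerome) and 1090 FPKM (Sadie). In healthy mucosa they summed to 744 to 830 FPKM, of which SDC1, also made by epithelium, was 611 to 680 FPKM, and none was at 0. SDC1 was lower in the lesion of every cat, at 83.5, 347 and 270 FPKM in Bart, Jerome and Sadie. DERL3 and SLAMF7 were higher in every cat, with mean log2 differences of 3.34 and 3.19. FKBP11 was higher in Jerome and Sadie (1.29 and 2.60) but not in Bart (-0.06). The sums are thus mostly not a measure of DERL3 and SLAMF7. Of 17 neutrophil markers 9 had a name, and 6 of these were highest in the lesion of Bart. Without S100A8, which epithelium also makes, the neutrophil markers summed to 652 FPKM in the lesion of Bart, 264 FPKM in that of Jerome and 250 FPKM in that of Sadie, against 17.5 to 53.2 FPKM in healthy mucosa. With S100A8 the sum was 2212 to 16293 FPKM in lesions and 5741 to 41400 FPKM in healthy mucosa, and no neutrophil marker was listed at 0. The fibroblast markers with a name, 5 of 13, were all highest in the lesion of Bart, at a sum of 1554 FPKM against 362 FPKM (Jerome) and 402 FPKM (Sadie) in the other lesions and 123 to 256 FPKM in healthy mucosa, none at 0. The macrophage markers, 7 of 11 with a name and none at 0, summed to 982 FPKM in the lesion of Bart, 1586 FPKM in that of Jerome and 1594 FPKM in that of Sadie. In healthy mucosa they summed to 219 to 521 FPKM. Of the 7, 4 were lowest and 2 highest in the lesion of Bart. The part of these cells in the order of the cats was not tested. After the muscle genes had been removed and the libraries rescaled, 21 members had an unadjusted p under 0.05 between the cats, in place of 20. This setting dropped only the 22 named muscle markers and set the summed FPKM of the libraries equal. Other RNA from muscle tissue stays in the values, so the part of muscle in the differences between cats was not tested.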

How the data were processed

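Total RNA of 6 biopsies, 1 lesion and 1 healthy site from each of 3 cats, was made into stranded libraries of polyadenylated RNA. The authors deposited FPKM per Ensembl identifier for each library. The tools listed in the submitters' processing notes are bcl2fastq, HISAT, Cufflinks and Cuffnorm. Their versions, the annotation and the build of the genome were not stated in the material read here. FPKM is scaled for length and library size, so no count model was used, and the exact depth of each library is unknown.

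The identifiers carry no symbols. Names came from the published gene sheet: the floored lesion and healthy values of each of its 1981 rows matched exactly 1 identifier to 5 significant digits, and 0 matched with the tissues swapped. Values of the sheet served only as keys, and its fold changes were not used. RefSeq symbols were found for 44 of 47 members, and none of the RefSeq rows at hand carries an Ensembl identifier.

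Log2 FPKM, floored at 1, was tested two-sided with limma 3.58.1 (R 4.3.3, mean-variance trend, Benjamini-Hochberg adjustment over 13327 identifiers), with tissue as the only term, and with the cat and tissue for the F test. The step was tested on simulated data. Joins and figures used Python 3.11.15, numpy 2.4.6, pandas 2.3.3 and matplotlib 3.10.9. Both libraries of a pair come from the same cat per the labels. Deviations from the tissue means correlated within a cat at 0.49 (Bart), 0.20 (Jerome) and 0.41 (Sadie), but the Jerome lesion correlated more with the healthy library of Sadie (0.27). With 1 biopsy per cat and tissue, the spread between libraries includes the sampling of the site.

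Members, role lists and marker lists were chosen with earlier results of these data known. Values in every library are given for members with lower lesions, for the 4 highest of each role group, for ligand and receptor pairs, for members at or above 1 FPKM in fewer than 3 libraries and for members on which the cats disagreed. CXCL8, CXCL14, CCL5, CCL8, IL33, IL12RB1, IL17RD, IL21R, TNFRSF9 and TNFRSF11B fall outside this rule and were added after their values were seen.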

Additional observations from a re-analysis of the deposited data

How the results depend on the processing

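The count of members called higher in lesions by limma was 8 as reported, 29 with the cat as a replicate block, and 0 to 10 when 1 library or 1 cat was left out. It was 4 without the healthy library of Bart, 1 without the lesion or the healthy library of Jerome, and 0 when the Sadie lesion, the Sadie healthy library, both of these or both libraries of Jerome were left out (17 to 26 at an unadjusted p under 0.05 in these 4 fits). Under the other floors, scalings and filters it was 6 to 10. Calls over all identifiers, in either direction, moved as well: 1588 as reported, 3098 with the cat as a block and 2136 without the cat Bart. They were 898 without the healthy library of Bart, and 655 without the lesion or 132 without the healthy library of Jerome. They were 1 without the Sadie lesion, 9 without the Sadie healthy library, and 0 without the cat Jerome or the cat Sadie. The count of members called lower was 0 as reported and 1 with the cat as a replicate block. It was also 1 after the muscle genes had been removed and the libraries rescaled to equal summed FPKM. The removal and the rescaling were not run apart, so this change cannot be credited to the muscle genes. The count of members called lower was 0 in every fit that left out 1 library or 1 cat. The cat Jerome had the highest lesion for 20 members by level and for 13 by the lesion minus healthy difference, and Sadie for 6 and 12. The cause was not tested. The median log2 difference of the members (1.49 to 1.87 over its alternatives) kept its direction. The 28 members without overlap became 27 to 42, the highest without the cat Bart. Leaving out a library can only keep or raise this count, so these fits say nothing about its stability. The share over all identifiers was not computed for these alternatives. The count of 0 members between cats was 0 under every alternative, which with so few residual degrees of freedom says nothing about stability. The order of the cats without CCL22, CSF2, IL20 and IL24 was added after the data were seen. Leaving out a lesion was not run for the order of the cats, since it would leave 2 lesions. The exact number of reads in each library is unknown, so values near 1 FPKM carry an unknown counting error.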
